A study of Homo sapiens with 8 samples.

Results

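The enzymes described here build or prepare covalent crosslinks in the extracellular matrix. They are the 5 lysyl oxidases LOX, LOXL1, LOXL2, LOXL3 and LOXL4, the 3 lysyl hydroxylases PLOD1, PLOD2 and PLOD3, and the transglutaminase TGM2. Every probe set whose platform annotation names 1 of these 9 genes was taken, which gave 19 probe sets of 54613, for 9 of 19777 genes. The rule that picks them uses names and no measured value, although the group was chosen with earlier results of these arrays known. All 8 arrays came from MDA-MB-231, an established line of metastatic human breast cancer, which carried a retroviral hairpin RNA against GFP, a control sequence, in both groups. All cells went without serum for 24 h. The untreated group (4 arrays, replicates A to D) received nothing further, and the treated group (4 arrays, A to D) received TGFβ for 3 h at a labelled 5 µg/ml, a unit that may be wrong since TGFβ is commonly dosed in ng/ml. The labels name the arrays biological replicates but do not describe the letters, so the error behind each p-value is the array-to-array spread, which may be partly technical. In bulk RNA, fewer cells that express a gene and less RNA per cell cannot be told apart.

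Lysyl oxidases are secreted, copper-dependent amine oxidases that turn lysine and hydroxylysine side chains of collagen and elastin into aldehydes, which then condense into crosslinks between chains. Lysyl hydroxylases act earlier, in the endoplasmic reticulum, where they use iron, oxygen and ascorbate to make the hydroxylysines on which the more stable crosslinks rest. Transglutaminase 2 instead joins glutamine to lysine side chains, with fibronectin among its known substrates. Several of these genes are known from other work as targets of TGFβ in fibroblasts, and LOX and PLOD2 as targets of hypoxia-inducible factors, so the comparison asks how far the crosslinking system moved in the first hours of TGFβ.

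The stretches of promoter shown are those of LOX and PLOD2, because only these among the 7 members with a promoter in the RefSeq table held the core of the hypoxia response element. Each is the 250 bases before the start of the gene in RefSeq on GRCh38.p14, read 5′ to 3′ on the minus strand, and capitals mark every match to ACGTG, that core, or to CAGAC, the short site bound by SMAD proteins, on either strand.
LOX, chr5:122078260-122078509: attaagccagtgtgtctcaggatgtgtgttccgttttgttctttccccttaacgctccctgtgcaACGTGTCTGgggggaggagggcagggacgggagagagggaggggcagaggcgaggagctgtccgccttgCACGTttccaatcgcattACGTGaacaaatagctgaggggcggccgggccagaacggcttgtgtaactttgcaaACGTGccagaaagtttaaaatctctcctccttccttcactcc
PLOD2, chr3:146161185-146161434: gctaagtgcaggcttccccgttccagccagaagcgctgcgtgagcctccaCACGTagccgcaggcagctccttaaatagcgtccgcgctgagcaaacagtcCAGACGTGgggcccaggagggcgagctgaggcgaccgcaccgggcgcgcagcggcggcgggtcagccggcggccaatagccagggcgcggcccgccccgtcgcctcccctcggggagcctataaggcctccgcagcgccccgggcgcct

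The LOX stretch held 4 matches to ACGTG and the PLOD2 stretch held 2, and each held 1 match to CAGAC. In the first stretch a CAGAC match on the reverse strand overlaps an ACGTG match, and in the PLOD2 stretch the CAGAC match overlaps an ACGTG match as well. Over the full windows of the table, from 250 bases before to 50 after a start, ACGTG was found in 4 of the 10 windows, those of 2 of the 7 genes, and in 21.4% of all 35116 windows. CAGAC was found in 6 of the 10 windows, those of 4 genes, and in 45.3% of all. LOX has 3 of the 10 windows, a pair of which overlap, and all 3 hold both motifs. GGCGCC, a GC-rich SMAD site, was found in 2 of the 10, those of LOXL4 and PLOD2, and in 19.2% of all. The palindromic SMAD box GTCTAGAC (0.202% of all windows) and the AP-1 site TGANTCA (7.71%) were in none of the 10. These are matches of letters and show no binding.

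No crosslinking enzyme passed the test after TGFβ. With limma, 0 of the 9 genes had an adjusted p under 0.05 and 0 had an unadjusted p under 0.05, where 114 of 19777 genes (0.576%) were called and 1610 had an unadjusted p under 0.05. With the replicate letter as a block, 0 of the 9 were called, where 3.56% of all genes were. Over probe sets, 0 of 19 were called in both fits, where 0.256% and, with the block, 1.75% of 54613 were. A count of 0 lies near these background shares and is no result about the members by itself. The 9 differences lay between -0.19 and 0.22 (log2, treated minus untreated), 6 above and 3 below zero. The 95% interval of each of the 9 lay inside 1.5-fold in either direction (a log2 difference of 0.585), with -0.47 the lowest bound and 0.49 the highest, which was also so for 86.7% of all genes. None of the 9 had groups without overlap, which 5.12% of all genes had. The median difference of the members was 0.03, beside 0.01 over all genes, and their median absolute difference 0.12, beside 0.09.

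**Figure D1:**
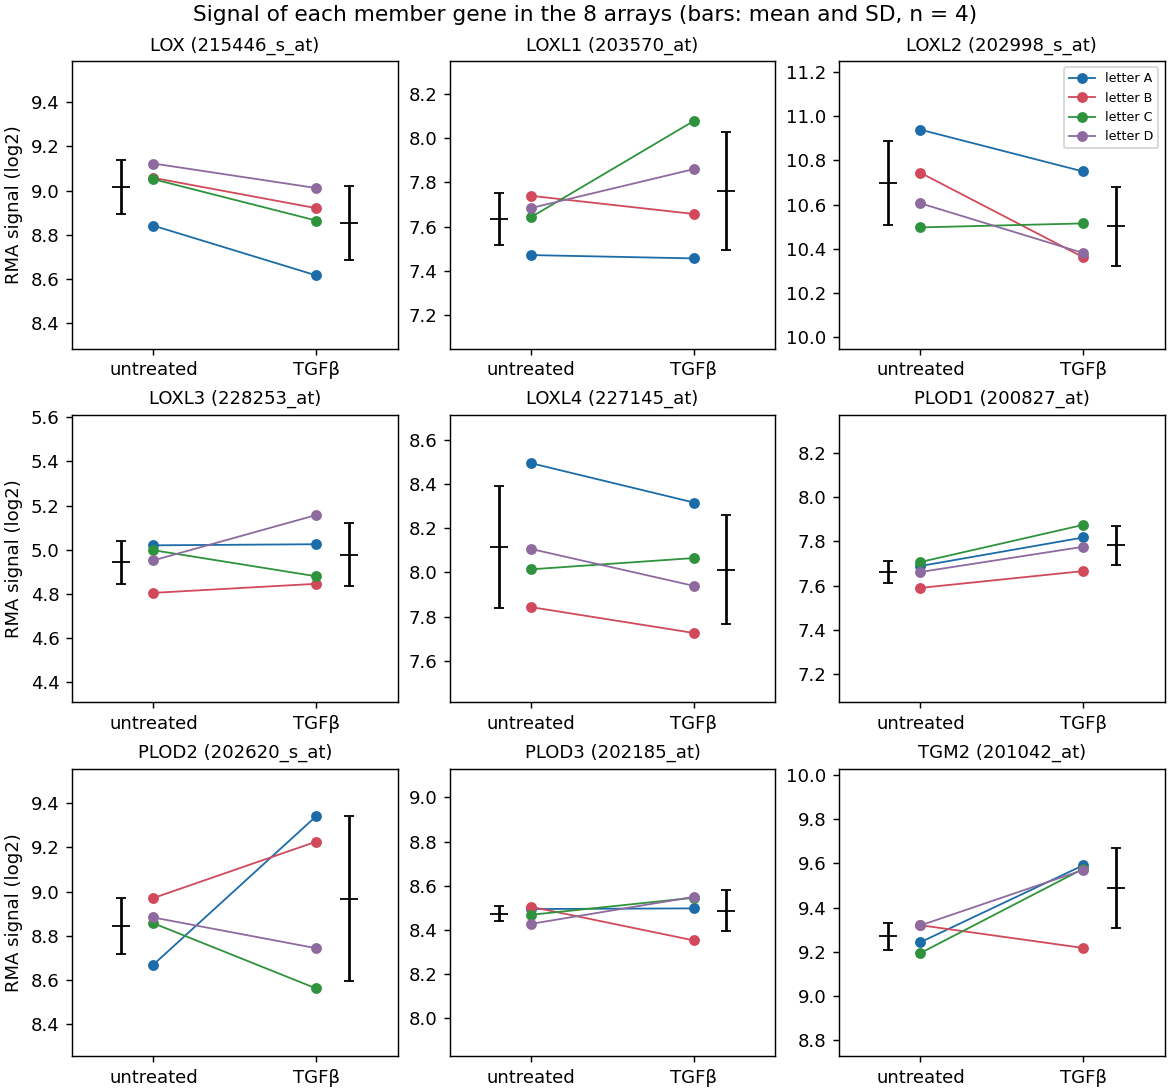
RMA signal (log2) of the probe set that stands for each of the 9 genes, untreated and TGFβ-treated, with 1 point per array, a line joining arrays of the same replicate letter, and bars for the mean and SD (n = 4); all panels span the same range of log2 signal. The groups overlap in every panel, LOX and PLOD1 move the same way in all 4 letters, and PLOD2 splits by letter.

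LOX, the founding member of its family and the enzyme best known for crosslinking fibrillar collagen, had slightly lower signals in the treated arrays. Its untreated signals were 8.84, 9.06, 9.05 and 9.12 (log2, replicates A to D), and its treated signals 8.62, 8.92, 8.87 and 9.01. Each treated array was lower than the untreated array of its letter, but the groups overlapped, since untreated A lay below treated B, C and D. The means were 9.02 ± 0.12 and 8.85 ± 0.17 (SD, n = 4 in each group), a difference of -0.17 ± 0.11 SE with a 95% interval of -0.41 to 0.08 (limma, adjusted p = 0.809; 0.375 with the block). Without treated A the difference was -0.09.

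The other probe sets of LOX had the same direction in all 4 letters and differed in its size. Probe set 204298_s_at differed by -0.18 ± 0.16 SE. Probe set 213640_s_at gave 6.12, 6.33, 6.59 and 6.54 untreated and 4.95, 5.66, 6.27 and 6.51 treated, so that the loss was -1.16 in letter A, -0.68 in B, -0.32 in C and -0.03 in D. Its difference of -0.55 ± 0.29 SE (interval -1.19 to 0.10) did not pass (limma over all probe sets, adjusted p = 0.749). With the block it was the only one of the 19 with an unadjusted p under 0.05 (0.00852, adjusted p = 0.167). In that fit 7230 of all 54613 probe sets had an unadjusted p under 0.05, so this count is no result about the members. Without treated A the difference was -0.25 (adjusted p = 0.805).

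Treated A stood apart in a measure of RNA quality. The control probe sets at the 3-prime and 5-prime ends of GAPDH differed by 0.54 on that array and by 0.06 to 0.14 on the other 7, and those of actin by 1.68 against 0.63 to 0.89. Besides 213640_s_at and 204298_s_at of LOX (-0.52 for the latter), 202997_s_at of LOXL2 and 211003_x_at and 211573_x_at of TGM2 were lower in treated A than in untreated A, by -1.19, -0.63 and -0.63, while no other letter of these 3 fell by more than -0.08. Without treated A, 211003_x_at of TGM2 differed by 0.26 (adjusted p = 0.746). The part of RNA quality in these values was not tested.

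LOXL1, which is tied to elastic fibres, had 7.47, 7.74, 7.64 and 7.68 untreated and 7.46, 7.66, 8.08 and 7.86 treated. Letters C and D were higher after TGFβ, by 0.44 and 0.18, and A and B were lower by less than 0.1, at -0.02 and -0.08. The difference was 0.13 ± 0.13 SE (interval -0.17 to 0.42, adjusted p = 0.903; 0.61 blocked). It was 0.02 without treated C, 0.07 without untreated A and 0.23 without treated A.

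LOXL2, which has scavenger receptor domains and is known for crosslinking the collagen IV of basement membranes, had 10.94, 10.74, 10.50 and 10.61 untreated and 10.75, 10.36, 10.52 and 10.38 treated. The treated arrays were lower in 3 letters and level in C (0.02), and the groups overlapped. The difference was -0.19 ± 0.12 SE (interval -0.47 to 0.08, adjusted p = 0.799; 0.351 with the block), and it was -0.11 without untreated A. Its 4 probe sets went both ways. Probe sets 202998_s_at and 202997_s_at had -0.19 and -0.28 ± 0.19 SE, and the others, whose signals lay below the array medians of 4.62 to 4.66, had 0.18 ± 0.10 SE for 202999_s_at and 0.06 ± 0.09 SE for 228808_s_at. The mean of 202997_s_at rested on letter A, and it was -0.12 without treated A.

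LOXL3 and LOXL4, the remaining lysyl oxidases with scavenger receptor domains, had letters on both sides of 0. LOXL3 was dim, at signals of 5.02, 4.81, 5.00 and 4.95 untreated and 5.03, 4.85, 4.88 and 5.16 treated, and its difference of 0.03 ± 0.10 SE (adjusted p = 0.979; 0.908 blocked) was measured close to the array medians. LOXL4 had 8.49, 7.84, 8.01 and 8.11 untreated and 8.32, 7.73, 8.07 and 7.94 treated. For LOXL4 the letters differed more than the treatment did, with letter A highest and B lowest in both groups, and the difference was -0.10 ± 0.16 SE (interval -0.45 to 0.25, adjusted p = 0.95; 0.629 blocked). Its second probe set, 1570219_at, was dim and had 0.04 ± 0.16 SE.

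**Figure D2:**
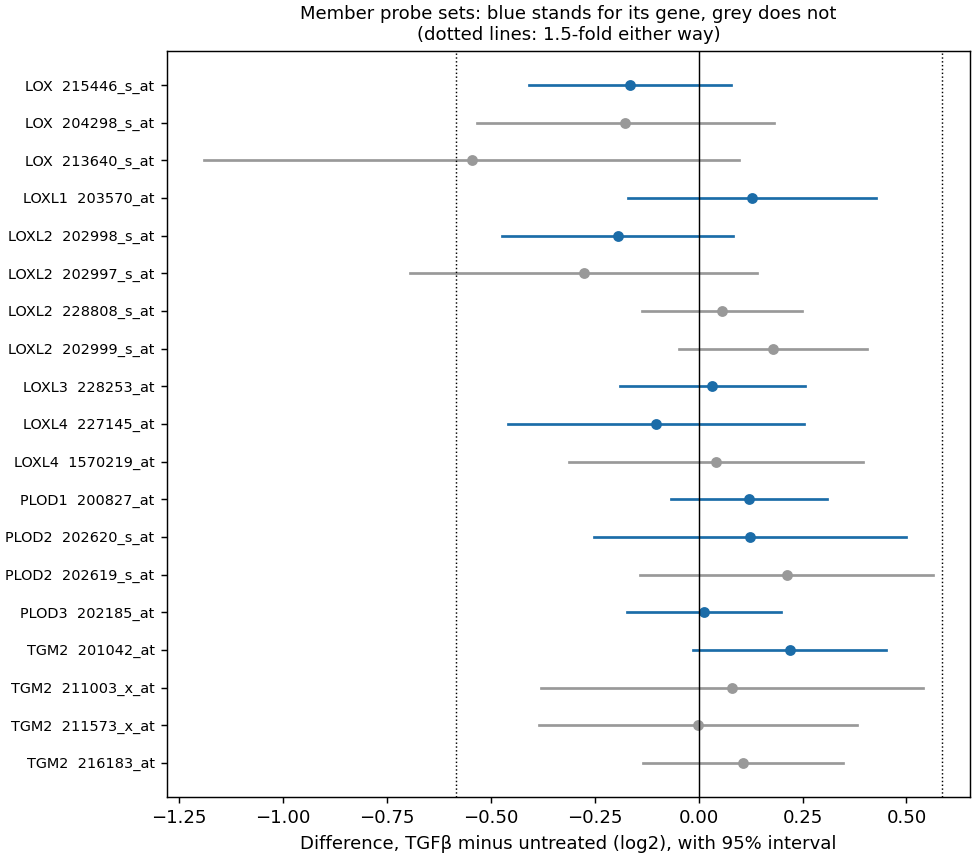
Difference between treated and untreated arrays (log2) with its 95% interval for each of the 19 probe sets, from the limma fit over all probe sets; blue marks the probe set that stands for its gene. Every interval includes 0, and only those of 213640_s_at (LOX) and 202997_s_at (LOXL2) reach past a 1.5-fold decrease.

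Among the lysyl hydroxylases, PLOD1, which acts on lysines of the collagen triple helix, had a small difference of the same sign in every letter. It had 7.69, 7.59, 7.71 and 7.66 untreated and 7.82, 7.67, 7.88 and 7.78 treated, and was higher in all 4 letters, by 0.08 to 0.17. The groups overlapped because treated B lay below untreated A and C. The difference was 0.12 ± 0.09 SE (interval -0.07 to 0.31, adjusted p = 0.826; 0.529 with the block).

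PLOD2, which hydroxylates the collagen telopeptides and so sets the type of crosslink, had the widest spread in the treated group of the 9 genes. Its untreated signals were 8.67, 8.97, 8.86 and 8.88, and its treated signals 9.34, 9.23, 8.56 and 8.74. Treated A and B were the highest of all 8 arrays and treated C the lowest. Within letters the differences were 0.67 in A, 0.26 in B, -0.30 in C and -0.14 in D, and the second probe set, 202619_s_at, had the same signs (0.38, 0.58, -0.10 and -0.02). The SD was 0.13 untreated and 0.37 treated. The mean difference was 0.12 ± 0.17 SE (interval -0.25 to 0.49), with an adjusted p of 0.937, or 0.751 in the blocked fit. Whether the letters differ in this response was not tested, since no label describes them.

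PLOD3, which can also transfer sugars onto hydroxylysine, had the smallest difference of the 9, 0.01 ± 0.09 SE (interval -0.18 to 0.20, adjusted p = 0.99; 0.964 blocked). Its signals were 8.50, 8.51, 8.47 and 8.43 untreated and 8.50, 8.35, 8.55 and 8.55 treated.

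TGM2 had the largest difference and the smallest p of the 9, and still did not pass. Its signals were 9.24, 9.32, 9.19 and 9.32 untreated and 9.59, 9.22, 9.58 and 9.57 treated. Treated A, C and D all lay above the untreated range, and treated B lay inside it. The means were 9.27 ± 0.06 and 9.49 ± 0.18 (SD, n = 4 in each group), a difference of 0.22 ± 0.11 SE with an interval of -0.01 to 0.45 (adjusted p = 0.658; 0.332 with the block). Without treated B the difference was 0.31 ± 0.09 SE (interval 0.11 to 0.51, adjusted p = 0.241), and the groups no longer overlapped. The same lack of overlap held for 2009 of 19777 genes without that array. Without any other single array the TGM2 difference was 0.185 to 0.236. The other probe sets of TGM2 had 0.08 ± 0.21 SE for 211003_x_at, a difference that rounds to 0 for 211573_x_at and 0.11 ± 0.11 SE for 216183_at. Treated A went up in 201042_at and 216183_at (0.35 and 0.39 against untreated A) and down in the other pair of probe sets, as given above.

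**Figure D3:**
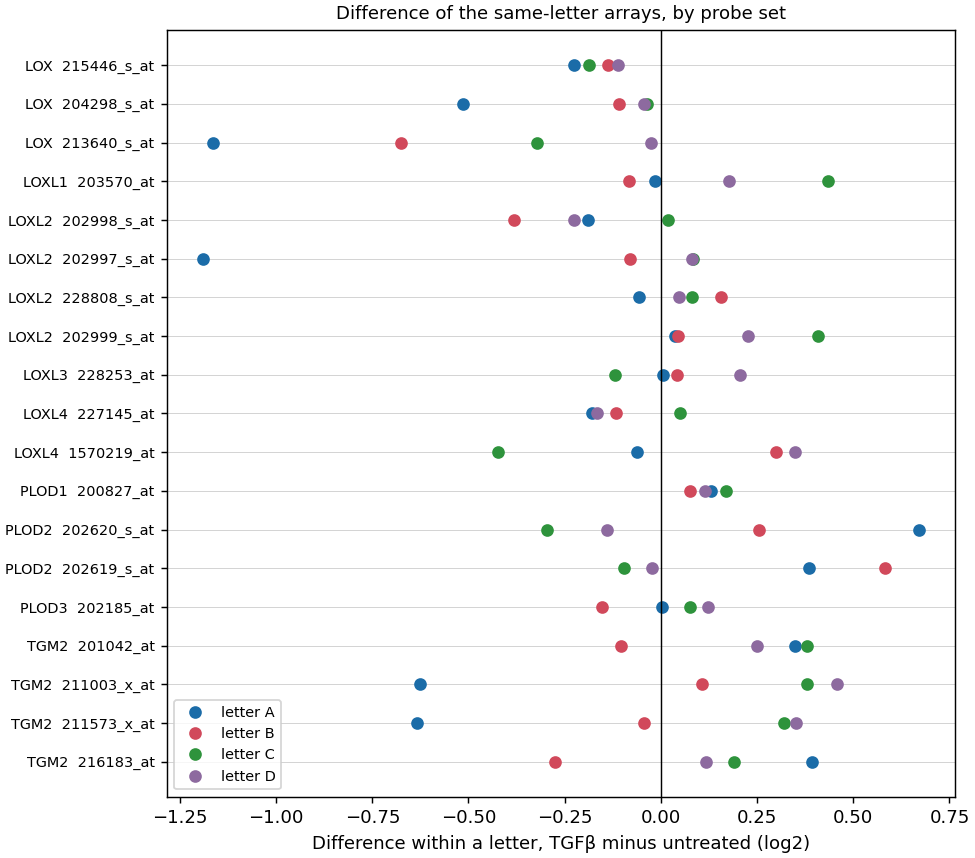
Difference between the treated and the untreated array of the same replicate letter (log2), 1 point per letter, for each of the 19 probe sets. The 3 LOX probe sets lie below 0 in all 4 letters, PLOD1 and 202999_s_at of LOXL2 above 0, and the other 14 have letters on both sides.

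Over the probe sets, 2 were higher in all 4 letters, 3 were lower and 14 were mixed. The same shares over all probe sets were not computed. The counts are thus no result about the members. Genes with the profile closest to those of the 3 members with the smallest p were found by the root-mean-square difference over the 8 arrays, each gene centred on its own mean, among the upper 60% of genes by signal. They were SPTB, EPHA5-AS1 and ZFHX2 for TGM2 (0.06, 0.06 and 0.07 log2, where TGM2 itself varied by 0.16), SMAD3, TUBG2 and EEF2K for LOXL2 (0.06 each, where LOXL2 varied by 0.19), and H2BC9, NEK11 and TRAPPC2 for LOX (0.05, 0.05 and 0.06, where LOX varied by 0.15). With profiles this flat, near matches are easy to find among 11866 genes.

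Collagen chains, the substrates of the enzymes, included genes that rose. COL1A1, a chain of fibrillar collagen I, had 7.16, 7.17, 7.10 and 7.03 untreated and 8.22, 8.94, 9.11 and 8.97 treated, with no overlap (difference 1.69 ± 0.17 SE, adjusted p = 0.00179). Its 5 probe sets all had a positive difference, from 0.06 to 1.69. COL4A1, a chain of basement membrane collagen IV, rose from 9.39 ± 0.47 to 10.68 ± 0.26 (SD, n = 4 in each group; difference 1.28 ± 0.22 SE, adjusted p = 0.0271), but passed in only 2 of the 8 fits without 1 array, those without untreated B or treated A, with adjusted p up to 0.123. COL4A2 and COL5A1 had 0.62 ± 0.16 SE and 0.91 ± 0.29 SE and passed once the letters were blocked (adjusted p = 0.00432 and 0.000447, against 0.172 and 0.306 unblocked). COL4A2 also passed without untreated B (0.78 ± 0.12 SE, adjusted p = 0.0276), where 3 genes of the list rose. Of 18 substrates and assembly partners 2 rose, none fell and 16 did not pass, or 4 and 14 with the block. Elastin, named for its role as a substrate and not by its p, had 0.20 ± 0.13 SE (adjusted p = 0.801). Fibronectin (FN1), named for the same reason, had 0.23 ± 0.23 SE (limma, adjusted p = 0.894). Its 7 probe sets all had a positive difference, from 0.18 to 1.23. The adjusted p of FN1 is that of its probe set with the highest mean and does not cover the larger differences. The median of the list was 0.10, beside 0.01 over all genes.

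The other enzymes and chaperones of collagen maturation did not pass. Of 23 measured genes that hydroxylate prolines, fold, glycosylate, export or trim procollagen, 0 were called by limma with or without the block. BMP1, the protease that removes the collagen C-propeptide and also releases active LOX from its proenzyme, had the smallest p in that list, with 0.28 ± 0.10 SE (adjusted p = 0.417; 0.0971 with the block; 6 of its 7 probe sets positive). MIA3, which loads procollagen into transport carriers, had -0.22 ± 0.10 SE (adjusted p = 0.634), and P3H4, a scaffold of prolyl and lysyl hydroxylases, -0.23 ± 0.12 SE (adjusted p = 0.717). The median of the list was 0.01, that of all genes 0.01. Of the 9 other transglutaminase family genes none passed in either fit. TGM7, EPB42 and TGM4 had the smallest p, with 0.28 ± 0.11 SE, 0.21 ± 0.11 SE and 0.13 ± 0.09 SE (adjusted p = 0.51, 0.704 and 0.834).

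Genes that supply the metals of these enzymes were not called in the unblocked fit of all 8 arrays. Of 11 genes of copper and iron handling none passed, and with the block 2 fell. Over all 19777 genes 114 (0.576%) were called, and 705 (3.56%) with the block, 431 of them lower. SLC40A1, the iron exporter ferroportin, had -0.74 ± 0.17 SE (adjusted p = 0.126, or 0.0142 blocked). ATP7B, a copper transporter, had -0.45 ± 0.16 SE (adjusted p = 0.428, or 0.0419 blocked). Only 1 of the 2 probe sets for ATP7B was lower. The 2 probe sets for SLC40A1 had -0.74 and -0.04. Without treated A both passed unblocked, at -0.86 ± 0.16 SE and -0.62 ± 0.11 SE (adjusted p = 0.0419 and 0.0337). Blocked, both passed when letter A was left out but not when B, C or D was, with adjusted p up to 0.0973 and 0.231. ATP7A, another copper transporter, fell only in the blocked fit without letter A (adjusted p = 0.0275). SLC39A13, a zinc transporter, had 0.10 ± 0.09 SE (adjusted p = 0.885). Of 15 targets of hypoxia-inducible factors, the transcription factors that also act on LOX and PLOD2, 1 rose and 14 did not pass, with a median of -0.05. The 1 was BHLHE40, a repressor that is a TGFβ target as well (1.21 ± 0.18 SE, adjusted p = 0.0162), which lost its call without untreated C, untreated D or treated D (adjusted p up to 0.0828). SLC2A1, a glucose transporter, and ANKRD37 passed with the block only (0.47 ± 0.10 SE and 0.42 ± 0.13 SE, adjusted p = 0.107 and 0.281; 0.015 and 0.0498 with the block). In blocked fits with 1 letter left out, SLC2A1 lost its call without B or C (adjusted p up to 0.0815), and ANKRD37 lost it in all 4 (0.0807 to 0.14). ADM and HK2 of the same list fell only when letter A was left out (adjusted p = 0.0172 and 0.00405, blocked). The blocked fit without letter A called 1304 of 19777 genes, 921 of them lower. With letter B, C or D left out, 288, 321 and 356 were called.

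TGFβ signalling itself was visible on the same arrays. Of 9 early SMAD targets 6 rose and none fell, 7 rose with the block, and the median of the list was 1.41. Over all genes 0.576% were called, and 3.56% with the block. SMAD7, a feedback inhibitor of TGFβ receptors, rose by 1.81 ± 0.21 SE (adjusted p = 0.0039), JUNB by 1.64 ± 0.11 SE (adjusted p = 0.000168) and the matrix protein TGFBI by 1.56 ± 0.16 SE (adjusted p = 0.00179), and these 3 passed whichever array was left out. PMEPA1 (2.24 ± 0.41 SE, adjusted p = 0.0418) and CCN2 (0.62 ± 0.09 SE, adjusted p = 0.0178) passed in 3 and 4 of the 8 such fits; both lost the call without untreated C, untreated D, treated C or treated D, and PMEPA1 also without treated B, with adjusted p up to 0.148 and 0.0889. SKIL, a SMAD corepressor, had 1.41 ± 0.35 SE and passed in the blocked fit (adjusted p = 0.00205, against 0.157) and without untreated B (1.73 ± 0.29 SE, adjusted p = 0.0336). Of the 9, 3 rose without untreated C, untreated D or treated D, and 4 without treated C. The list was drawn up from known targets with results of these arrays in view.

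**Figure D4:**
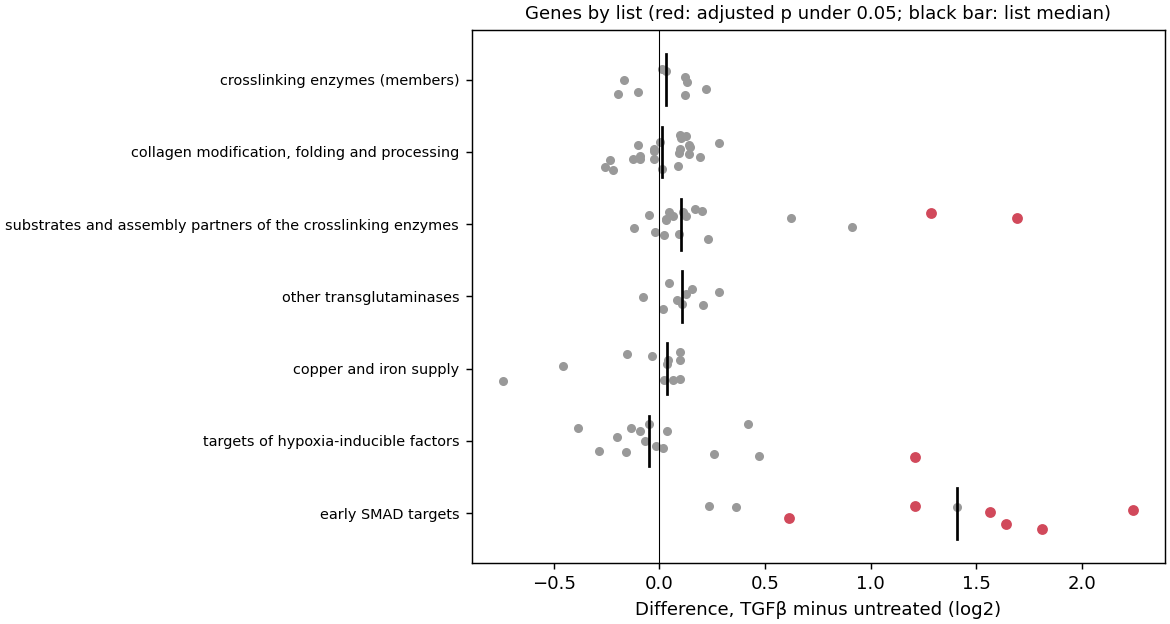
Difference between treated and untreated arrays (log2) of each gene, 1 point per gene, for the 9 crosslinking enzymes and 6 lists of related genes; red marks an adjusted p under 0.05 in the limma fit without the block and a black bar the median of the list. All 9 enzymes lie between -0.19 and 0.22, while 2 collagen genes and 6 early SMAD targets lie to the right in red; BHLHE40 is in 2 of the lists.

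Of the markers chosen for the line, the mesenchymal VIM was at 13.64 ± 0.12 and CD44 at 11.32 ± 0.35 in the untreated arrays (log2, SD, n = 4). ESR1 and PGR, listed as absent from the line, were at 5.76 ± 0.08 and 3.12 ± 0.08. PGR lay below the array medians of 4.62 to 4.66, but ESR1 lay above them, so its absence is not shown here. Of the 7 luminal epithelial markers, which include ESR1 and PGR, none passed, and their mean untreated signals ran from 3.12 to 12.0, with KRT18 and KRT19 at 12.02 and 11.47 and EPCAM at 8.39. CDH1, low in this line, was higher after TGFβ (4.08 ± 0.11 and 4.98 ± 0.18, SD, n = 4, limma, adjusted p = 0.00579). Its untreated mean lay below the array medians of 4.62 to 4.66 and its treated mean not far above them. Signals this low are hard to tell from background, and the values are those of the probe set that stands for the gene. None of the 7 fibroblast, 4 endothelial and 4 leukocyte markers passed the test, which concerns a change after TGFβ and not presence. Their mean untreated signals were 2.78 to 5.65, 3.22 to 7.59 and 4.20 to 4.79. The endothelial marker at 7.59 was PECAM1 (7.16 treated), while VWF, CDH5 and KDR were at 4.41, 3.22 and 3.61 untreated.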

How the data were processed

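The table holds 1 value per probe set and array, which the authors made with RMA per the submitters' processing notes; the sources used here give neither its version nor the set of arrays it was run on. No header names the base, and log2 was inferred from RMA and from the range of the deposited values. Low signals cannot be told from background.

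After removal of 62 control probe sets, 54613 were tested. The platform annotation of 2016 names 1 gene for 41091, several for 1801 and none for 11721. The probe set with the highest mean stood for each of 19777 genes. Differences (treated minus untreated) came from limma 3.58.1 under R 4.3.3, using lmFit and eBayes; its two-sided p-values were adjusted by Benjamini-Hochberg over all genes, or all probe sets, and read at 0.05. Probe sets whose names end in _s_at or _x_at can match several transcripts. Figures used matplotlib 3.10.9 in Python 3.11.15.

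Deviations from the group means correlated at 0.49, 0.69, 0.34 and 0.30 between arrays of the same letter, as the data and not the labels show. Correlations between different letters are not given here, so pairing by letter cannot be told from a coarser grouping of the letters. The blocked fit is given where it changes a call, and beside members. The fit was also run on simulated data. The simulated arrays were independent, so that run does not cover arrays that vary together by letter.

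Members and lists were chosen with earlier results of these data known. Named list genes are those that passed in either fit and the 3 with the smallest p of each list. Elastin, FN1, ATP7A, ADM and HK2 are named outside that rule, after their values were seen. The list genes COLGALT2, FTH1 and CA9 were not analysed here, and 9 of the 10 early SMAD targets listed are reported. The p53-depleted cells of the design were not used here. Promoters are those of RefSeq (GRCh38.p14), where 7 of the 9 members matched; LOXL2 and TGM2 are named only.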

Additional observations from a re-analysis of the deposited data

Results flagged for a closer look

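Each group of 4 arrays was checked for a single array far from the other 3, in 38 groups of the 19 probe sets. Chance alone marks about 1 in 20 groups, here 1.9, and 2 were marked. For TGM2 (201042_at), treated replicate B, at 9.22, lay below the other treated arrays, at 9.57 to 9.59. For LOXL2 (228808_s_at), untreated replicate B, at 4.33, lay below the others, at 4.51 to 4.53.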

How the results depend on the processing

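None of the 9 genes was called in any of the 19 alternatives, including the fit with the replicate block, nor was any of the member probe sets in the 18 alternatives run for them; LOXL3 was not among the upper 60% of genes, and LOX, LOXL2 and PLOD2 have no probe set without the ending that marks several possible transcripts. LOX, LOXL1, LOXL2, PLOD1 and TGM2 kept their direction in all of theirs, but not their size: without 1 array LOXL1 was 0.0234 to 0.2308, LOX -0.2239 to -0.0861, and LOXL2 -0.2772 to -0.1137. PLOD3 was -0.001 with centring on the array median, -0.009 and -0.024 with the replicate block when letter C or D was left out, and -0.0086 to 0.0571 without 1 array. LOXL3 was -0.024 with the block when letter D was left out, and -0.0267 to 0.0769 without 1 array; LOXL4 was -0.2042 to 0.0238 and PLOD2 -0.0012 to 0.2584 without 1 array, and PLOD2 -0.0597 with the block when letter A was left out. An interval reached past 1.5-fold for LOX with the mean of its probe sets (-0.68) and for PLOD2 without treated C (0.59), without treated D (0.61) or with the block and letter C left out (0.60). Of 84 list genes 8 were called, 15 with the replicate block, 17, 11, 11 and 12 with the block and letter A, B, C or D left out, and 4 to 10 without 1 array. Of all 19777 genes 114 were called, 705 with the block, and 46 to 232 without 1 array. With the block and letter A, B, C or D left out, 1304, 288, 321 and 356 were. The cause was not tested. The number of arrays limits the precision.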
